A study of Arabidopsis thaliana with 9 samples.

Results

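The 10 genes described here encode enzymes that conjugate, oxidise, hydrolyse, sulfate or methylate the hormone jasmonate in Arabidopsis thaliana. They were chosen by identifier and not by a cut on their values, although earlier results of these data were known. They are not all the genes of these steps, and others are given further below. They make up 10 of the 33323 genes in the deposited count table. Their transcripts were compared between 3 genotypes in the Col-0 background. The first was the T-DNA insertion line hac1-2 (SALK_136314) and the second the insertion line hac1-1 (SALK_080380), each with an insertion in HAC1, a histone acetyltransferase gene of the CBP family. The third was wild type Col-0 (WT). Each genotype had 3 RNA-seq libraries, made from full leaves 12 to 14 at day 49 after sowing, without treatment. Plants received 20 h of light (28 µmol photons) and 4 h of darkness a day. The labels call the leaves of both mutants non-senescent and those of WT senescent, so genotype and senescence state cannot be told apart. The design text names 1 biological replicate, so every p-value here measures library-to-library spread alone, which may be technical.

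Jasmonoyl-isoleucine is the active form of the hormone: it brings the receptor COI1 together with JAZ repressors, which are then degraded, and MYC factors are freed to switch on their targets. JAR1 makes this conjugate from jasmonic acid and isoleucine. Cytochromes P450 of the CYP94 family remove it by oxidising its tail, the amidohydrolases IAR3 and ILL6 cleave the amide bond, and the JOX oxygenases hydroxylate jasmonic acid before it can be conjugated. Many of these genes are themselves induced by jasmonate and by wounding in leaves, so that the hormone speeds its own removal.

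Library totals ran from 5750097 to 9461600 counts. HAC1 itself averaged 135 ± 14.5 CPM in hac1-2, 65.1 ± 7.11 CPM in hac1-1 and 155 ± 10.5 CPM in WT (counts scaled by the TMM-adjusted library size, SD, n = 3 each). HAC1 fell by 1.26 on the log2 scale in hac1-1 (edgeR adjusted p = 1.2e-08), while its log2 fold change in hac1-2 was -0.20 (edgeR adjusted p = 0.31), so the HAC1 counts check the hac1-1 labels and not those of hac1-2. Where the insertions lie relative to the counted reads was not analysed here. Leaf mesophyll markers were abundant in all libraries, and summed markers of root stayed at or below 1.73 CPM and those of floral organs at or below 0.55 CPM. SAG12, a marker of late senescence, had 0 counts in the 3 hac1-2 libraries, 5 in hac1-1 and 6 in WT. The other 3 markers of senescent leaf, SAG13, SEN1 and WRKY53, were each called lower in both mutants, and the 4 summed to 100.3 to 128 CPM in hac1-2, 76.5 to 94.3 CPM in hac1-1 and 214 to 226 CPM in WT. Chromatin immunoprecipitation data of the study were not analysed here.

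In edgeR, transcripts of the oxidising enzymes CYP94B3, CYP94C1, JOX2 and JOX3 were called lower in both mutants, and the sulfotransferase gene ST2A higher in hac1-1. In hac1-2 the calls of CYP94C1 and JOX3 were each lost in 7 of 18 alternative fits, and DESeq2 called JOX3 in neither mutant. The conjugating enzyme gene JAR1 and the amidohydrolase genes IAR3 and ILL6 were not called in either mutant. GH3.10, a second conjugating enzyme gene outside the 10, was called lower in both (log2 fold change -0.52 in each). Genes were tested with edgeR's quasi-likelihood test and called at a Benjamini-Hochberg adjusted p under 0.05 over all 16560 genes with enough counts. Of the 10 genes, 8 had enough counts to be tested. In hac1-2 against WT 4 of them were called lower, where 7.44% of all tested genes were called lower and 10.3% either way. Fewer were called lower there by DESeq2 (3) and by limma on FPKM (2). Shares of all tested genes are given for edgeR only, so the counts of the other tools have no background beside them. None was called higher there in the edgeR test, although 1 (ST2A) had an unadjusted p under 0.05, and DESeq2 also called none higher, against 2.85% of all tested genes in edgeR. In hac1-1 against WT edgeR called 4 lower and 1 higher, where 9.12% of all tested genes were called lower, 3.51% higher and 12.6% either way. There DESeq2 called 3 lower and limma on FPKM 4. In edgeR the same 4 genes were called lower in both comparisons, which share the WT libraries, and 5.31% of all tested genes were called lower in both. None of the 8 was called higher in both in edgeR, against 1.2% of all tested genes. All 6 mutant libraries lay below all WT libraries for the same 4 genes and above them for none, against 9.82% and 5.05% of all tested genes. Groups did not overlap for 4 of the 8 genes in hac1-2 against WT (28% of all tested genes), for 5 in hac1-1 against WT (27.6%) and for 2 in hac1-2 against hac1-1 (18.2%). In hac1-2, 72.3% of all called genes were lower, against 57.8% with library size as the only scaling. The median log2 fold change of the 8 tested genes was -0.73 in hac1-2 and -0.76 in hac1-1, against 0.02 over all tested genes in each comparison. Reduced RNA per cell and a smaller number of expressing cells cannot be told apart in these whole-leaf samples.

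**Figure D1:**
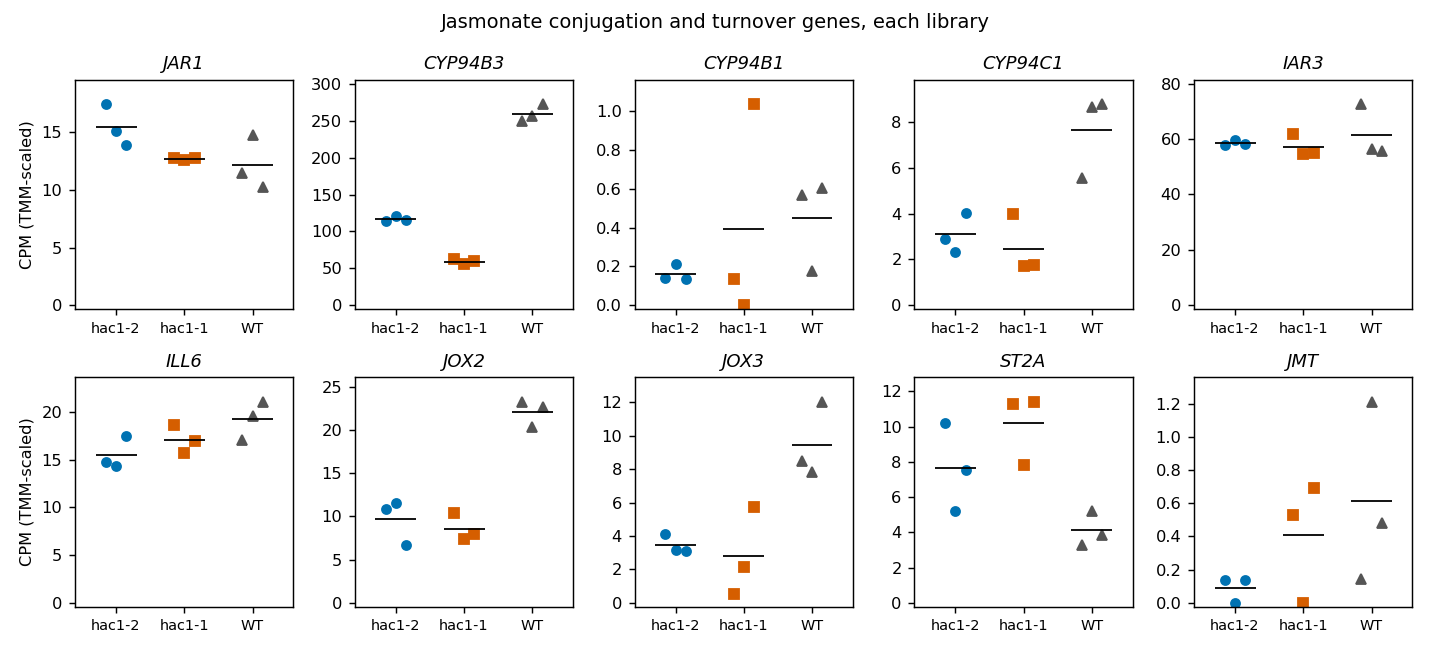
CPM of each of the 10 genes in every library (vertical axes include 0 and differ between panels), with hac1-2, hac1-1 and WT from left to right, and the group mean as a bar. CYP94B3 forms 3 separate levels, with means of 117, 59.2 and 259.8 CPM, whereas the means of IAR3 lie between 57.2 and 61.6 CPM, and no library of CYP94B1 or JMT exceeds 1.21 CPM.

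JAR1 (AT2G46370, chromosome 2 from 19033586 to 19036683 on the plus strand, 4 introns) encodes the synthetase that couples jasmonic acid to isoleucine. Coordinates here are those of the TAIR10.1 reference. JAR1 had 17.5, 15.1 and 13.9 CPM in hac1-2, 12.8, 12.6 and 12.8 CPM in hac1-1 and 11.5, 14.7 and 10.2 CPM in WT. The hac1-1 libraries lay close together and inside the WT range, and 2 of the 3 hac1-2 libraries lay above the WT range. The log2 fold change was 0.36 in hac1-2 (95% interval -0.04 to 0.76, edgeR adjusted p = 0.29) and 0.08 in hac1-1 (95% interval -0.34 to 0.49, edgeR adjusted p = 0.87). All hac1-2 libraries lay above all hac1-1 libraries, where groups did not overlap for 18.2% of all tested genes. Directly compared, hac1-2 against hac1-1 gave a log2 fold change of 0.28 (95% interval -0.12 to 0.68, edgeR adjusted p = 0.56), which was not called.

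CYP94B3, which hydroxylates jasmonoyl-isoleucine, had the smallest adjusted p of the 8 tested enzyme genes in each comparison and the highest FPKM of these 8. The gene (AT3G48520, chromosome 3, minus strand, 17974853 to 17976774) has no intron. It had 113.7, 121 and 116 CPM in hac1-2, 62.1, 55.7 and 59.9 CPM in hac1-1, and 249.6, 256 and 273 CPM in WT. The 3 groups did not overlap: all hac1-1 libraries lay below all hac1-2 libraries, and these below all WT libraries. CYP94B3 was reduced to 0.449 times the WT level in hac1-2 (log2 fold change -1.15, SE 0.10, edgeR adjusted p = 7.5e-09) and to 0.228 times in hac1-1 (log2 fold change -2.13, SE 0.11, edgeR adjusted p = 2.2e-13). Set directly against each other, hac1-2 held 1.97 times the hac1-1 level (log2 fold change 0.98, SE 0.11, edgeR adjusted p = 2.5e-06). CYP94B3 was the only one of the 8 tested genes called between the mutants, a comparison in which 2.84% of all tested genes were called and 1.86% were called higher.

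CYP94C1 (AT2G27690, chromosome 2 from 11809279 to 11811280 on the plus strand, no intron) encodes the P450 that carries the oxidation on to the carboxylated form. It had 2.89, 2.33 and 4.04 CPM in hac1-2, 3.99, 1.69 and 1.73 CPM in hac1-1 and 5.53, 8.67 and 8.79 CPM in WT. All mutant libraries lay below all WT libraries, and the mutants overlapped each other. CYP94C1 fell 2.49-fold in hac1-2 (log2 fold change -1.32, SE 0.36, edgeR adjusted p = 0.017) and 3.03-fold in hac1-1 (log2 fold change -1.60, SE 0.38, edgeR adjusted p = 0.0043). In hac1-2 the call changed with the libraries used: the adjusted p was 0.061 without hac1-2 replicate 1, 0.0998 without hac1-2 replicate 2, 0.0668 without WT replicate 2 and 0.0954 without WT replicate 3, and 0.0044 to 0.102 over all alternatives, with no call in the 3 limma fits on FPKM. The hac1-1 call held in all 18 alternatives. The gene had 73 counts over the 3 hac1-2 libraries and 51 over the 3 hac1-1 libraries. Between the mutants the log2 fold change was 0.28 (95% interval -0.55 to 1.10).

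CYP94B1 (AT5G63450, chromosome 5 from 25408821 to 25410725 on the minus strand), the closest relative of CYP94B3 and an enzyme of the same reaction, was hardly detected. It had 1, 2 and 1 counts in hac1-2, 1, 0 and 6 counts in hac1-1 and 4, 1 and 5 counts in WT. Most of these values lie at or near the limit of 3 counts per library, or 0.318 to 0.520 CPM, a limit that covers counting error alone. The highest, 6 counts in hac1-1 replicate 3, was 1.04 CPM. CYP94B1 was not tested. The predicted proteins of CYP94B3 and CYP94B1 are identical at 76.1% of 503 aligned positions, and those of CYP94B3 and CYP94C1 at 50.3% of 481. In transcript sequence CYP94B3 and CYP94B1 share 78.4% of 1392 aligned bases.

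The amidohydrolase genes did not pass the test. IAR3 (AT1G51760, chromosome 1 from 19199351 to 19201707 on the plus strand), whose product releases jasmonic acid and also auxin from amino acid conjugates, had 57.9, 59.5 and 58.3 CPM in hac1-2, 61.9, 54.6 and 55.05 CPM in hac1-1 and 72.7, 56.5 and 55.5 CPM in WT. Its 95% intervals were narrow, at -0.33 to 0.18 on the log2 scale in hac1-2 and -0.36 to 0.15 in hac1-1. ILL6 (AT1G44350, chromosome 1 from 16834210 to 16838562 on the minus strand), which acts on the same conjugates, had 14.7, 14.3 and 17.5 CPM in hac1-2, 18.6, 15.6 and 17.0 CPM in hac1-1 and 17.0, 19.6 and 21.1 CPM in WT. The groups overlapped for both genes. The log2 fold change of ILL6 was -0.31 in hac1-2 (95% interval -0.67 to 0.04, edgeR adjusted p = 0.30) and -0.17 in hac1-1 (95% interval -0.53 to 0.19, edgeR adjusted p = 0.60). The 2 predicted proteins are identical at 50.6% of 423 aligned positions.

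JOX2 (AT5G05600, chromosome 5 from 1672070 to 1674770 on the plus strand) encodes a 2-oxoglutarate-dependent dioxygenase that hydroxylates jasmonic acid. It had 10.9, 11.5 and 6.73 CPM in hac1-2, 10.4, 7.36 and 7.96 CPM in hac1-1 and 23.3, 20.3 and 22.6 CPM in WT. All mutant libraries lay below all WT libraries, and the mutants overlapped each other. JOX2 fell 2.26-fold in hac1-2 (log2 fold change -1.18, SE 0.21, edgeR adjusted p = 0.00029) and 2.56-fold in hac1-1 (log2 fold change -1.36, SE 0.22, edgeR adjusted p = 5e-05), and both calls held in all 18 alternatives.

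JOX3 (AT3G55970, chromosome 3 from 20766735 to 20769410 on the minus strand) encodes a second oxygenase of this kind, whose predicted protein is identical to that of JOX2 at 63.4% of 358 aligned positions. It had 4.13, 3.18 and 3.096 CPM in hac1-2, 0.532, 2.15 and 5.71 CPM in hac1-1 and 8.51, 7.80 and 12.0 CPM in WT. All mutant libraries lay below all WT libraries, but the hac1-1 libraries were spread widely, from 4 to 33 counts, with a coefficient of variation of 94.8% against 16.6% in hac1-2. JOX3 fell 2.74-fold in hac1-2 (log2 fold change -1.46, SE 0.41, edgeR adjusted p = 0.020) and 3.54-fold in hac1-1 (log2 fold change -1.82, SE 0.43, edgeR adjusted p = 0.0045). DESeq2 called neither (adjusted p = 0.18 in hac1-2 and 0.067 in hac1-1). In hac1-2 the adjusted p was 0.083 without hac1-2 replicate 2, 0.082 without hac1-2 replicate 3 and 0.13 without WT replicate 3, and 0.00032 to 0.20 over all alternatives, with no call in the 3 limma fits on FPKM. In hac1-1 the log2 fold change was -1.29 without hac1-1 replicate 1 and -2.85 without hac1-1 replicate 3.

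ST2A (AT5G07010, chromosome 5 from 2174668 to 2176446 on the minus strand, no intron), the sulfotransferase of 12-hydroxyjasmonate, ran the other way. It had 10.2, 5.19 and 7.54 CPM in hac1-2, 11.3, 7.82 and 11.4 CPM in hac1-1 and 3.26, 5.20 and 3.85 CPM in WT. All hac1-1 libraries lay above all WT libraries, while hac1-2 replicate 2 and WT replicate 2 had nearly the same level. ST2A rose 2.50-fold in hac1-1 (log2 fold change 1.32, SE 0.30, edgeR adjusted p = 0.0028), a call that held in all 18 alternatives. For hac1-2, edgeR gave a log2 fold change of 0.89 (SE 0.30) and an adjusted p of 0.058. That value fell under the threshold without hac1-2 replicate 2 (0.026), without hac1-1 replicate 2 (0.041) and without WT replicate 2 (0.047), and also when libraries were scaled by size alone (0.040) or low genes were kept (0.032), and it ran from 0.026 to 0.29 over all alternatives. Between the mutants the log2 fold change was -0.43 (95% interval -0.997 to 0.14), so a difference between their ST2A levels was not detected. The neighbouring paralog ST2B, which shares 85.1% of 1524 aligned transcript bases with ST2A, had 7, 17 and 16 counts in hac1-2, hac1-1 and WT, and was not tested.

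JMT (AT1G19640, chromosome 1 from 6788885 to 6791919 on the minus strand), the methyltransferase that forms methyl jasmonate, had 1, 0 and 1 counts in hac1-2, 4, 0 and 4 counts in hac1-1 and 1, 7 and 4 counts in WT. Most of these values are at or near the limit of 3 counts per library, and JMT was not tested.

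**Figure D2:**
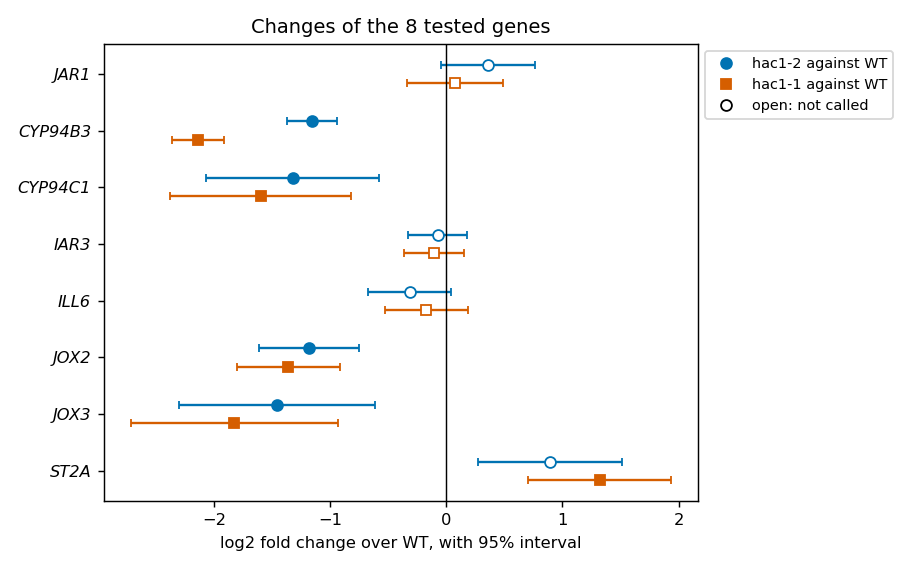
Log2 fold change over WT of the 8 tested genes (horizontal axis) in hac1-2 (circles) and hac1-1 (squares), with 95% intervals and filled symbols for called genes. The 4 oxidising enzyme genes lie between -2.13 and -1.15, JAR1, IAR3 and ILL6 between -0.31 and 0.36, and ST2A at 0.89 and 1.32.

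The 300 bases before the annotated gene start are shown for the 2 P450 genes and JOX3, which fell together, and for ST2A, which rose in hac1-1, so that the sequences next to the start sites can be compared. They come from the TAIR10.1 genome and the RefSeq annotation, at chr3:17976775-17977074 on the minus strand for CYP94B3, chr2:11808979-11809278 on the plus strand for CYP94C1, chr3:20769411-20769710 on the minus strand for JOX3 and chr5:2176447-2176746 on the minus strand for ST2A, each written 5′ to 3′ along the gene. Capitals mark the motifs searched, which MYC factors are known to bind.
CYP94B3: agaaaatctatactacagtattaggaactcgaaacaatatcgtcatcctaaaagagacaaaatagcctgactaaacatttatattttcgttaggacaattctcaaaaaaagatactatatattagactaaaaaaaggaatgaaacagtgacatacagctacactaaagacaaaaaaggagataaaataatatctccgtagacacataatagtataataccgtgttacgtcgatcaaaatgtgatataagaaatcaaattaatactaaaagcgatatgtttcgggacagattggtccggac
CYP94C1: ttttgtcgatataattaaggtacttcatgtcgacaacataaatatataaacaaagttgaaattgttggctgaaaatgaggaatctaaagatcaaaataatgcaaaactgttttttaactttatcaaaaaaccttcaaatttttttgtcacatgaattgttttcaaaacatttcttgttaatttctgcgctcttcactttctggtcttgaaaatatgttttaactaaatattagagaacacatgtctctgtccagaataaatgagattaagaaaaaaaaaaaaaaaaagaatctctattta
JOX3: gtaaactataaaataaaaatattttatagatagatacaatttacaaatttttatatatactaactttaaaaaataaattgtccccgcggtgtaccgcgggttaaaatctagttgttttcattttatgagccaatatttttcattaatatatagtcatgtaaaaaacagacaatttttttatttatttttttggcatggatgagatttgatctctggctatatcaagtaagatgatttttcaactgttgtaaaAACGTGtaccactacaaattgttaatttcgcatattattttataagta
ST2A: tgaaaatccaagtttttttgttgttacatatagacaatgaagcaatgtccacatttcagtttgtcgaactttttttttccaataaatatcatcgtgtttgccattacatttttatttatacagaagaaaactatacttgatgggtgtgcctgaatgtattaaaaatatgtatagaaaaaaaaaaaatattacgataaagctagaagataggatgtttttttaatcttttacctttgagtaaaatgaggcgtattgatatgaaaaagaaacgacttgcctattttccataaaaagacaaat

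The motifs were the G-box CACGTG, which reads the same on both strands, and its variant AACGTG, which reads CACGTT on the other strand. The pair cannot start at the same base. Among the 10 windows, only that of JOX3 held a match, 1 AACGTG that starts 48 bases before the gene start. Over 27443 windows of protein-coding genes, 7.09% held the G-box, 8.71% the variant and 15% either. In the JOX2 window 251 of the 300 bases lie within another annotated gene, and its sequence is not shown. No match says only that these letters are not in this window. Gene starts differ between annotations, and the gene lengths behind the authors' FPKM differ from the RefSeq exon lengths for all 8 genes that have an FPKM.

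Levels of different genes are given per gene length. How far the reads gather at the 3′ end is not known, and where they do, counts do not scale with length, so the order of the genes depends on this choice. The authors' FPKM, the count scaled by library total and gene length, held 8 of the 10 genes, since CYP94B1 and JMT are not in that table. CYP94B3 was first in each genotype, at 70.3 ± 1.67 FPKM in hac1-2, 35.1 ± 2.72 in hac1-1 and 149 ± 7.74 in WT (SD, n = 3 each). IAR3 was second, at 35.5 ± 0.57, 34.1 ± 3.19 and 35.5 ± 5.11 FPKM in the same order of genotypes. The libraries of these 2 genes overlapped in hac1-1 and did not overlap in hac1-2 or WT.

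The order of the lower genes changed more. In WT, JOX2 came next at 15.3 ± 0.89 FPKM and did not overlap with its neighbours, followed by ILL6 (9.27 ± 1.06), JOX3 (6.62 ± 1.58), JAR1 (4.65 ± 0.94), CYP94C1 (3.91 ± 0.98) and ST2A (2.80 ± 0.72), each overlapping with the next. In hac1-1, ILL6 (8.50 ± 0.93), ST2A (7.17 ± 1.56) and JOX2 (6.16 ± 1.28) overlapped along the order, and JAR1 (5.02 ± 0.16) lay below them. JOX3 (2.02 ± 1.92) and CYP94C1 (1.31 ± 0.72) were the lowest and overlapped. In hac1-2, ILL6 (7.85 ± 1.05), JOX2 (7.06 ± 1.77), JAR1 (6.21 ± 0.69) and ST2A (5.46 ± 1.82) each overlapped with the next, while JOX3 (2.55 ± 0.42) and CYP94C1 (1.66 ± 0.50) stood apart below them. By FPKM, ST2A ranked 6 of 8 in hac1-2, 4 in hac1-1 and 8 in WT. By mean CPM, with no division by length, it ranked 6, 5 and 8, since JAR1 (12.7 CPM) then lay above ST2A (10.2 CPM) and JOX2 (8.56 CPM) in hac1-1. JAR1 (15.5 CPM) also lay above JOX2 (9.71 CPM) in hac1-2 by mean CPM.

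**Figure D3:**
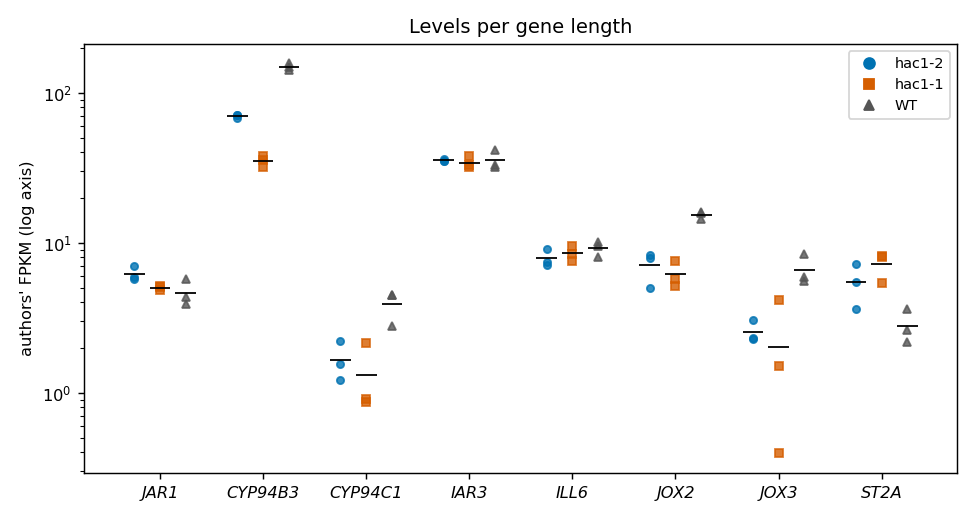
Authors' FPKM of the 8 genes in that table on a log axis, with hac1-2, hac1-1 and WT from left to right for each gene, 1 symbol per library and the mean as a bar. CYP94B3 meets IAR3 near 35 FPKM in hac1-1 and lies above it in hac1-2 and WT.

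Ratios within a library do not depend on how libraries are scaled to each other, and the gene lengths set their size but not their fold difference between genotypes. The FPKM of CYP94B3, which removes jasmonoyl-isoleucine, over that of JAR1, which makes it, was 9.76, 12.0 and 12.5 in hac1-2, 7.30, 6.65 and 7.02 in hac1-1, and 32.6, 26.1 and 40.1 in WT. The 3 genotypes did not overlap. This is a ratio of transcripts, not of enzyme or hormone amounts, and it leaves out the other conjugating enzyme gene, GH3.10. Relative to IAR3, CYP94B3 stood at 1.98 ± 0.04 in hac1-2, 1.03 ± 0.05 in hac1-1 and 4.27 ± 0.77 in WT (SD, n = 3 each). The ratio of IAR3 to JAR1 was 5.76 ± 0.69, 6.79 ± 0.47 and 7.84 ± 1.90 in hac1-2, hac1-1 and WT. The WT libraries overlapped with those of each mutant. All hac1-2 libraries (5.01 to 6.35) lay below all hac1-1 libraries (6.49 to 7.33). CYP94B3 over ST2A, the pair that ran in opposite directions, was 14.0 ± 5.20 in hac1-2, 5.02 ± 0.86 in hac1-1 and 55.3 ± 12.1 in WT.

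**Figure D4:**
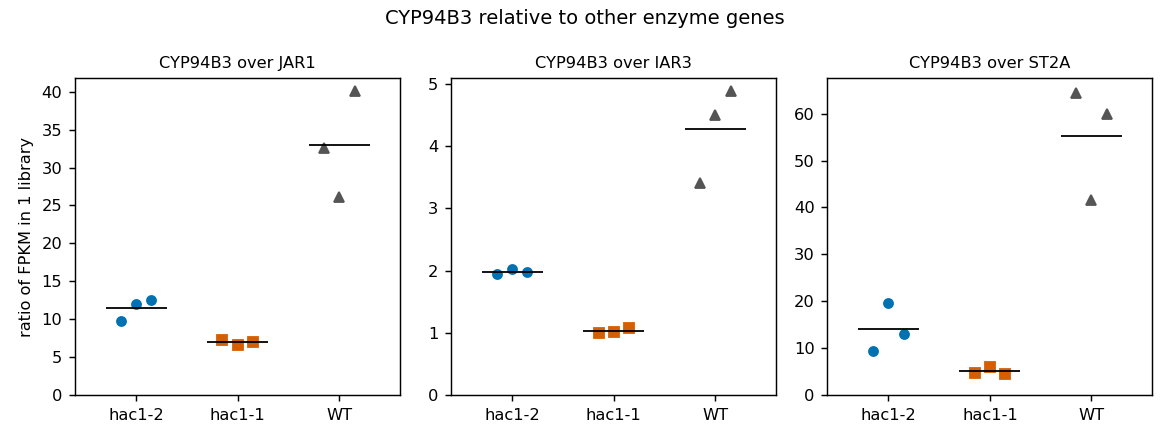
Ratio of the FPKM of CYP94B3 to that of JAR1, IAR3 and ST2A in each library (vertical axes start at 0), with hac1-2, hac1-1 and WT from left to right and the mean as a bar. The ratio is highest in WT and lowest in hac1-1 in all 3 panels, without overlap between genotypes.

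The likeness of 2 genes was measured as the root mean square difference of their log2 CPM, each centred on its own mean, over the 9 libraries. Among the 8 tested genes, IAR3 and ILL6 were closest (0.22), followed by JAR1 with IAR3 (0.26). CYP94B3 was closest to JOX2 (0.43) and CYP94C1 (0.45), whereas JOX3 and ST2A were the farthest apart (1.58). Among the other tested genes that averaged 5 CPM or more, the nearest to CYP94B3 were PUB22, a U-box ubiquitin ligase gene (0.18), ZAT7, a zinc finger protein gene (0.20), and AT5G19580 (0.20). For PUB22 the log2 fold change was -1.40 (hac1-2) and -2.05 (hac1-1). The nearest to CYP94C1 were BGAL4, a beta-galactosidase gene (0.27), AT5G28630 (0.35) and ZAT7 (0.35). JOX2 had AT2G15020 (0.17), AT3G52520 (0.20) and AT5G13100 (0.20) as its nearest genes, and JOX3 had none closer than AT1G36622 (0.49), VGDH1 (0.51) and AT1G15830 (0.57). All points share their libraries and depth, and the measure says nothing of function.

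Other genes of jasmonate turnover were mostly low or not called. Of 17 listed, 8 had enough counts, and 1 was called lower in hac1-2 and 2 in hac1-1, with median log2 fold changes of -0.05 and -0.08. GH3.10, a gene for a second jasmonic acid conjugating enzyme, averaged 43.6 ± 5.39 CPM in hac1-2, 43.7 ± 3.16 CPM in hac1-1 and 62.7 ± 5.82 CPM in WT (SD, n = 3 each). It fell in both mutants (edgeR adjusted p = 0.0068 in hac1-2 and 0.0064 in hac1-1), although no gene of the list was called in hac1-2 without hac1-2 replicate 3. MES2, a methylesterase gene, averaged 96.4 ± 5.10, 62.8 ± 10.2 and 111 ± 6.15 CPM in hac1-2, hac1-1 and WT. It fell in hac1-1 (log2 fold change -0.83, edgeR adjusted p = 1.7e-05) and was higher in hac1-2 than in hac1-1 (log2 fold change 0.62, edgeR adjusted p = 0.0042). The methylesterase gene MES10 (47.7, 49.7 and 59.7 CPM) and the amidohydrolase gene ILL1 (7.54, 7.19 and 5.66 CPM) were not called. The remaining oxygenase genes JOX1 (0, 0 and 4 counts summed over hac1-2, hac1-1 and WT) and JOX4 (11, 8 and 6 counts) and the P450 gene CYP94B2 (0, 0 and 1 count) were too low to test.

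The synthesis, repressor and signalling genes of the pathway were set beside these values from the same fits. Of 12 tested jasmonate synthesis genes, 5 were called lower in hac1-2 and 6 lower and 1 higher in hac1-1, with medians of -0.28 in both. The lipoxygenase genes LOX4 (81.0, 62.2 and 151 CPM in hac1-2, hac1-1 and WT) and LOX3 (158, 142 and 269.6 CPM) fell in both mutants, as did AOC3, an allene oxide cyclase gene, and OPR3, the reductase gene of the same route. The called rise was that of AOC1 in hac1-1 (91.2 against 67.6 CPM), chosen after its values were seen. That call was lost on leaving out either replicate 1 or 3 of hac1-1, and on leaving out either replicate 2 or 3 of WT, and 2 genes of the list were called higher in hac1-1 and 1 in hac1-2 without WT replicate 1. Of 11 tested JAZ genes, 6 were called lower in hac1-2 and 7 in hac1-1, with medians of -0.84 and -0.96. JAZ7 averaged 8.14, 5.61 and 24.3 CPM in hac1-2, hac1-1 and WT. Of 8 receptor, MYC and JAM genes, 2 were called lower in each mutant, MYC2 (795, 762 and 1005 CPM), the main activator of the pathway, and JAM1 (206, 199.9 and 302 CPM), a repressor related to it. In hac1-2 only 1 of them was called when any single hac1-2 library, WT replicate 1 or WT replicate 2 was left out. COI1, the receptor gene, was not called, with log2 fold changes of -0.02 and -0.12.

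**Figure D5:**
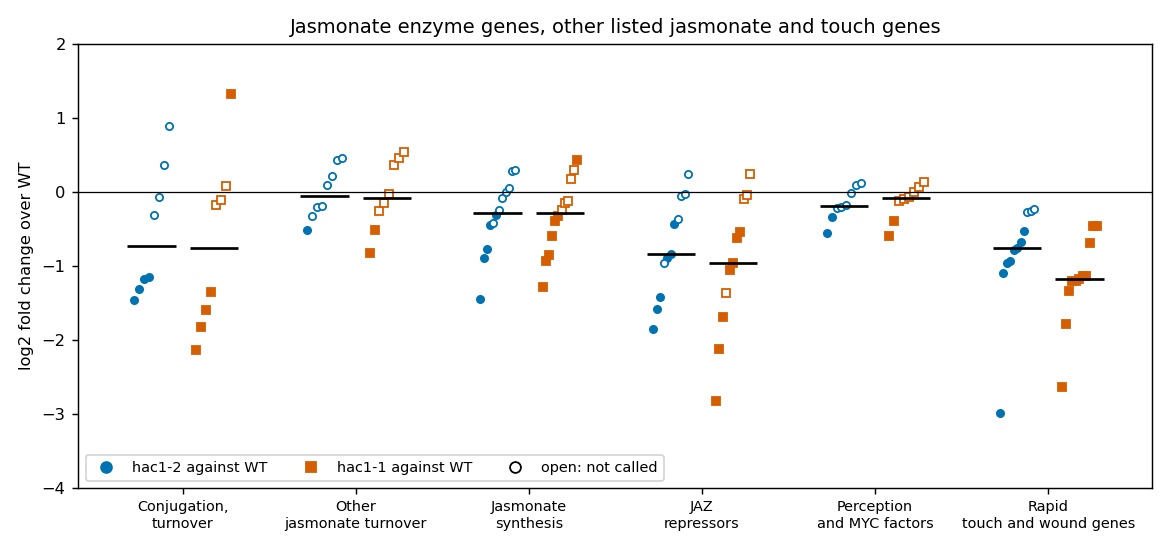
Log2 fold change over WT (vertical axis) of the 8 tested enzyme genes and of the tested genes of 5 lists, in hac1-2 (circles, left) and hac1-1 (squares, right), filled where called, with the median as a bar. The touch and wound list has medians of -0.76 and -1.17, the JAZ list of -0.84 and -0.96 and the enzyme genes of -0.73 and -0.76.

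Rapid touch and wound genes, which respond to handling and wounding as jasmonate genes do, moved in the same direction. Of 11 tested, 8 were called lower in hac1-2 and all 11 in hac1-1. Their summed level was 3467 to 3641 CPM in hac1-2, 3014 to 3055 CPM in hac1-1 and 5168 to 5594 CPM in WT. CYP94B3 had the same order of genotypes, but so did the summed JAZ, jasmonate synthesis, other turnover and senescent leaf lists, each without overlap. The JAZ list summed to 667 to 699 CPM in hac1-2, 608 to 617 CPM in hac1-1 and 1090 to 1216 CPM in WT. Of 3 phloem markers, SUC2, the sucrose loader of the phloem, was called lower in both mutants and APL and SEOR1 in neither, and the 3 summed to 62.2 to 69.7, 59.1 to 66.5 and 92.8 to 103 CPM in hac1-2, hac1-1 and WT. Of the 3 xylem markers none passed the filter, and they summed to at most 1.69 CPM in any library. Leaf mesophyll markers, of which LHCB1.3 was highest, summed to 9482 to 9771 CPM in hac1-2, 6332 to 7677 CPM in hac1-1 and 6736 to 7225 CPM in WT. The single markers differed against WT: LHCB1.3 and LHCB3 were called higher in hac1-2 only, and RBCS1A and RBCS2B lower in hac1-1 only. Guard cell markers summed to 26.3 to 30.0 CPM in hac1-2, 33.0 to 36.4 CPM in hac1-1 and 35.8 to 45.6 CPM in WT, with 1 of 2, FAMA, called lower in hac1-2. Neither trichome and epidermis marker was called in edgeR, and they summed to 30.4 to 36.5, 26.5 to 29.6 and 24.5 to 29.3 CPM in hac1-2, hac1-1 and WT. The share of 18S ribosomal RNA counts was 12.1 to 14.4% in hac1-2, 13.9 to 21.0% in hac1-1 and 13.0 to 15.6% in WT. The part of touch response, senescence state, phloem content and library composition in the fall of the oxidising enzyme genes was not tested.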

How the data were processed

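Total RNA of whole leaves was sequenced by BrAD-seq per the labels, a strand-keeping method whose variants differ in how far reads gather at the transcript's 3' end. Which variant was used, the aligner, the counter, the strand setting and the annotation version are not given in the sources used here. Read counts were deposited for 33323 genes (build TAIR10 per the submitters' processing notes). The deposited FPKM cover 18168 genes and equal count over library total and gene length, the length coming out whole, to 0.01 bases, for 100% of these genes.

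The edgeR 4.0.16 package (R 4.3.3) kept 16560 genes by filterByExpr at its minimum count of 10, scaled libraries by TMM and ran quasi-likelihood tests, with 1 dispersion trend over all 9 libraries, for hac1-2 against WT, hac1-1 against WT and hac1-2 against hac1-1, at a Benjamini-Hochberg adjusted p of 0.05. SE is the size of the log2 fold change over the root of F. These steps were tested on simulated data. Alternatives were RLE factors, library size only, DESeq2 1.42.0, no filter, only the groups compared, a replicate block, limma 3.58.1 on log2(FPKM + 1) and log2(FPKM + 0.1), the first also at a mean FPKM of at least 1, and each library left out.

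The enzyme genes, lists, motifs and tests were chosen with earlier results of these data known. Named genes are the enzyme genes, HAC1, up to 4 genes of each list (ranked by the larger of their adjusted p-values in the mutants) and the 3 genes nearest in pattern to each enzyme gene called alike in both mutants. Others were named after their values were seen, to account for a count or check. Predicted proteins were translated from the TAIR10.1 genome and aligned with Biopython 1.88 (BLOSUM62), transcripts were compared with BLAST 2.17.0, and matplotlib 3.10.9 drew the figures. None of the 10 genes overlaps another annotated gene.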

Additional observations from a re-analysis of the deposited data

Results flagged for a closer look

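CYP94B3 differed between the 2 insertion lines. Its log2 fold change for hac1-2 against hac1-1 was 0.98 (SE 0.11, edgeR adjusted p = 2.5e-06), with all 3 hac1-2 libraries above all 3 hac1-1 libraries, so the fall relative to WT was smaller in hac1-2. HAC1 itself was also higher in hac1-2 than in hac1-1 (log2 fold change 1.05, edgeR adjusted p = 3.3e-06). Other listed genes were also called higher in hac1-2 than in hac1-1, where 1.86% of all tested genes were. They were MES2, 5 of 11 touch and wound genes (TCH2, TCH4, ZAT12, ERF5 and ERF6), all 4 leaf mesophyll markers, and SAG13 and WRKY53 of the 3 tested markers of senescent leaf. The touch and wound count was 3 without hac1-2 replicate 2, hac1-2 replicate 3 or hac1-1 replicate 1, and 2 without hac1-1 replicate 3. The part of these in the CYP94B3 levels was not tested. The genes named here outside the enzyme genes were chosen after their values were seen.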

How the results depend on the processing

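Of 432 refits of the log2 fold changes of the 8 tested genes, 405 kept both direction and side of the threshold, 15 lost a call, 5 gained one and 7 changed sign, the last among values that were not called. The 4 genes called in hac1-2 against WT became 2 in each of the 3 limma fits on FPKM, and 2 to 5 when 1 library was left out. With 1 library left out, the number called there over all tested genes ran from 1203 to 1974, against 1704 with every library. Likewise the 4 genes called the same way in both mutants became 2 in each of these limma fits, and 2 to 5 with a library left out. Of the calls lost, 14 were those of CYP94C1 and JOX3 in hac1-2 (73 and 83 counts over 3 libraries) and 1 that of JOX3 in hac1-1 with DESeq2. In hac1-1, where each had 51 counts, CYP94C1 kept its call in 18 of 18 alternatives and JOX3 in 17. CYP94B1 and JMT had too few counts to be tested. IAR3 in hac1-2 changed sign to 0.0083, 0.0087 and 0.0083 in the limma fits (pseudocount 1, pseudocount 0.1, and pseudocount 1 with a mean FPKM of at least 1) and ran from -0.14 to 0.066 with a library left out. With a library left out, IAR3 in hac1-1 ran from -0.18 to 0.032, JAR1 in hac1-1 from -0.039 to 0.23, and JOX3 in hac1-2 against hac1-1 from -0.17 to 1.40.

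Over all genes, the 470 called in hac1-2 against hac1-1 became 721 with no filter and 252, 241 and 260 in the limma fits, in the order above. They became 249 without hac1-2 replicate 2, 204 without hac1-2 replicate 3 and 240 without hac1-1 replicate 3, and ran from 204 to 548 with a library left out. Of the listed jasmonate genes outside the enzyme genes, leaving out the touch and wound list, 2 were called there with no filter, against 1 with it. The causes were not tested. With the replicate block, 715 genes were called in hac1-2 against hac1-1, and no call of the 8 genes changed. Deviations of same-numbered libraries correlated at 0.012 to 0.14, over 0.1 in 1 of 9 pairs. By that limit of 0.1, set on size alone, the numbers were not taken as pairs. Yet all 9 correlations were positive, and in 17 of 18 checks a library correlated best with its own number. The main fits do not model this likeness.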
